A study of Mus musculus with 12 samples.

Results

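The genes of the proteasome were examined by RNA-seq in iNKT1 cells, the T-bet-expressing subset of invariant natural killer T cells, with and without the transcription factor Ets1. Members were all genes whose mouse symbol starts with Psma, Psmb, Psmc, Psmd or Psme and a digit, pseudogenes left out. The annotation holds 45 such genes, and 42 of the 14004 genes in the deposited table were among them. Psma8, Psmb9 and Psmb11 were not analysed here. Psmb9 encodes the immune form of the β1 catalytic subunit, so the comparison of immune with constitutive subunits rests on Psmb8 and Psmb10. Psmc3ip meets the naming rule but encodes a meiotic recombination protein that binds Psmc3, not a subunit. The other 41 genes encode subunits, activators or assembly chaperones.

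The 12 libraries fell into 4 groups of 3. Control cells came from Tbx21Cre Rosa26-YFP+ mice and knockout (cKO) cells from Tbx21Cre Ets1F/F Rosa26-YFP+ mice, in each case from thymus and from liver. Both genotypes thus carry a Cre recombinase driven by Tbx21 (the T-bet gene) and a YFP reporter, and cKO cells can lose Ets1 only once Tbx21 has been switched on. Cells were primary, bound CD1d tetramer and expressed YFP; the labels give no age of the mice. No label ties a library to a mouse, so p-values measure the variation among these libraries, and that variation may be technical. In bulk libraries such as these, fewer cells of a type and less RNA per cell cannot be told apart.

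The proteasome is the protease complex that degrades ubiquitin-tagged proteins and makes most of the peptides shown on MHC class I. Its 20S core is a stack of α and β rings in which the β1, β2 and β5 positions cut; in most cells these are Psmb6, Psmb7 and Psmb5. Interferon gamma induces Psmb9, Psmb10 and Psmb8, which take those positions and form the immunoproteasome, and also the activator subunits Psme1 and Psme2 (PA28α and PA28β). Lymphocytes hold much immunoproteasome without stimulation. The 19S cap, built from Psmc ATPases and Psmd subunits, recognises, unfolds and feeds in the tagged protein. Nrf1 (encoded by Nfe2l1) is known to raise proteasome subunit genes together when proteasome activity falls.

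Promoter sequences are shown because Ets1 binds an ETS core, and because interferon and Nrf1 are known inputs to these genes. RefSeq windows on GRCm38.p6 (250 bases before to 50 after a start site) were matched by symbol for 36 of the 42 genes. The 4 printed were picked as examples of motif matches, and each gives the 150 bases before its start site, 5′ to 3′ in the direction of the gene, with matches in capitals. They lie at chr11:70525207-70525356 (Psmb6, plus strand), chr11:101316063-101316212 (Psme3, plus), chr11:80428465-80428614 (Psmd11, plus) and chr3:95042615-95042764 (Psmd4, minus), and none overlaps an annotated exon.
Psmb6: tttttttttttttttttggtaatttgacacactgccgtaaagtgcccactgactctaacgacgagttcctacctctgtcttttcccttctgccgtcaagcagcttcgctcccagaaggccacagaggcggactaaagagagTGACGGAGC
Psme3: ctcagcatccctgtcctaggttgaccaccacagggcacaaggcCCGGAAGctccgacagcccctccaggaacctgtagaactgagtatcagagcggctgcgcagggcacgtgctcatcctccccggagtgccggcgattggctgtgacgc
Psmd11: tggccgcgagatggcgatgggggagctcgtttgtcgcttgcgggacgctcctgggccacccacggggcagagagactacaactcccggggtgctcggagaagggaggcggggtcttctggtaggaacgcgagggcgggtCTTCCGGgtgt
Psmd4: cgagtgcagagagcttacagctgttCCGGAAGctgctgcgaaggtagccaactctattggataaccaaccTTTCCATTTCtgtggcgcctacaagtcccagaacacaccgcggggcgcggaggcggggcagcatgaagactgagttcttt

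In the Psmb6 window the capitals mark a Nrf1/Nrf2 element, searched as TGACNNNGC. In Psme3 and Psmd4 they mark the ETS core, searched as CCGGAAG, and in Psmd11 the same core on the opposite strand. Psmd4 also holds a match, on the opposite strand, to the interferon-stimulated response element, searched as a pair of GAAA runs 2 bases apart. All motifs were searched on both strands of the 300-base windows. The ETS core was found in 13 of the 36 member windows (36.1%), against 9.93% of 27025 genes with a window. The interferon element was found in 4 members (11.1%: Psmb3, Psmd4, Psmd9 and Psme1), against 3.99% of all genes. The gamma-activated site, searched as TTCNNNGAA, was found in 2 members (5.56%: Psmb8 and Psmd2), against 9.55%. The Nrf1/Nrf2 element was found in 6 (16.7%), against 14%. Median GC content was 57.6% in member windows and 52.8% in those of all genes, and its part in these shares was not tested. Many of the windows not printed overlap annotated exons, so not all lie upstream of their gene. The Psmb8 window lies inside the gene: its bases before the RefSeq start site are 34197945 to 34198194, and the annotated gene starts at 34197721. Bases before that annotated start were not searched for Psmb8. A match is a run of letters and not a shown binding site.

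Values below are read counts that the authors adjusted to a common library size, as deposited. Reads recovered from them came to between 18487051 and 43435700 in 10 libraries, but only to 3867342 in control liver library 3 and 3205405 in cKO liver library 2. Control thymus libraries 1 and 2 stood apart by the number of genes without a read, 3528 and 2824 against 966 to 2223 in the others. Ets1 stood at 23700, 28100 and 19500 (control) and 11800, 7070 and 5790 (cKO) in thymus, and at 18800, 18500 and 15900 (control) and 3590, 4430 and 5790 (cKO) in liver. It fell in thymus (log2 fold change -1.58 ± 0.27 SE, limma adjusted p = 0.0095) and in liver (-1.97 ± 0.27, limma adjusted p = 0.0012). The thymus call was lost under 3 of 24 alternatives. Among them were a fit of only the groups compared (limma adjusted p = 0.59) and one without cKO thymus library 3 (limma adjusted p = 0.071). The remaining one left out control thymus libraries 1 and 2, so that only library 3 stood for the controls, and gave -1.31. All 10 iNKT1 markers, such as Cd3e, Trac and Zbtb16, were present, with a summed value of 122000 to 174000 per library. Of 8 thymic epithelial markers only Epcam and Ccl25 had a row, and their sum did not exceed 298 in any library.

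No proteasome gene passed the test in any comparison. Differences were fitted with limma on log2(value + 1) over 13058 genes, all 42 members among them, and a gene was called at a Benjamini-Hochberg adjusted p under 0.05. Between cKO and control cells 0 of 42 members were called in thymus (0.636% of all genes tested), 0 in liver (0.505% of all genes) and 0 over both tissues (2.27%). For the difference of the cKO effect between the tissues 0 were called (0.00766%). Between liver and thymus 0 were called in control cells (0.605%) and 0 in cKO cells (0.222%). At an unadjusted p under 0.05, 4 members passed in thymus (13.2% of all genes did), namely Psmc5, Psmd10, Psmd11 and Psmd13, and 0 in liver (6.92%). Over both tissues 3 passed (13.7%), Psmc3ip, Psmc5 and Psmd13, and for the difference of effects 2 (5.38%), Psmb6 and Psmc5. Between tissues 4 passed in control cells (12.7%), Psmb7, Psmc5, Psmd10 and Psmd13, and 4 in cKO cells (7.60%), Psma6, Psmb5, Psmb6 and Psmc5. With edgeR on recovered reads the count called was 0 in all 6 comparisons. With DESeq2 it was 2 in thymus, 0 in liver, 0 over both tissues, 1 for the difference of effects, 1 between tissues in control cells and 1 in cKO cells, and these are named with their genes below.

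A gene that was not called may still differ, and intervals show how large a difference the data leave room for. The 95% interval of a member's log2 fold change within a tissue reached a median of 1.17 to either side, from 0.61 in thymus and 0.60 in liver for Psmb8 to 3.75 for Psmd9. It included 0 for 38 of 42 members in thymus and for 42 of 42 in liver. The members' median coefficient of variation between libraries was 53% in control and 34.1% in cKO thymus, and 27.7% in control and 22.8% in cKO liver. For all genes tested the medians were 82.8%, 64.4%, 50.5% and 46%. In control thymus 14 of the 42 lay more than 5-fold apart between their highest and lowest library, and so did 4 among the cKO libraries of thymus; the liver counts were 1 for control and 2 for cKO cells.

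**Figure D1:**
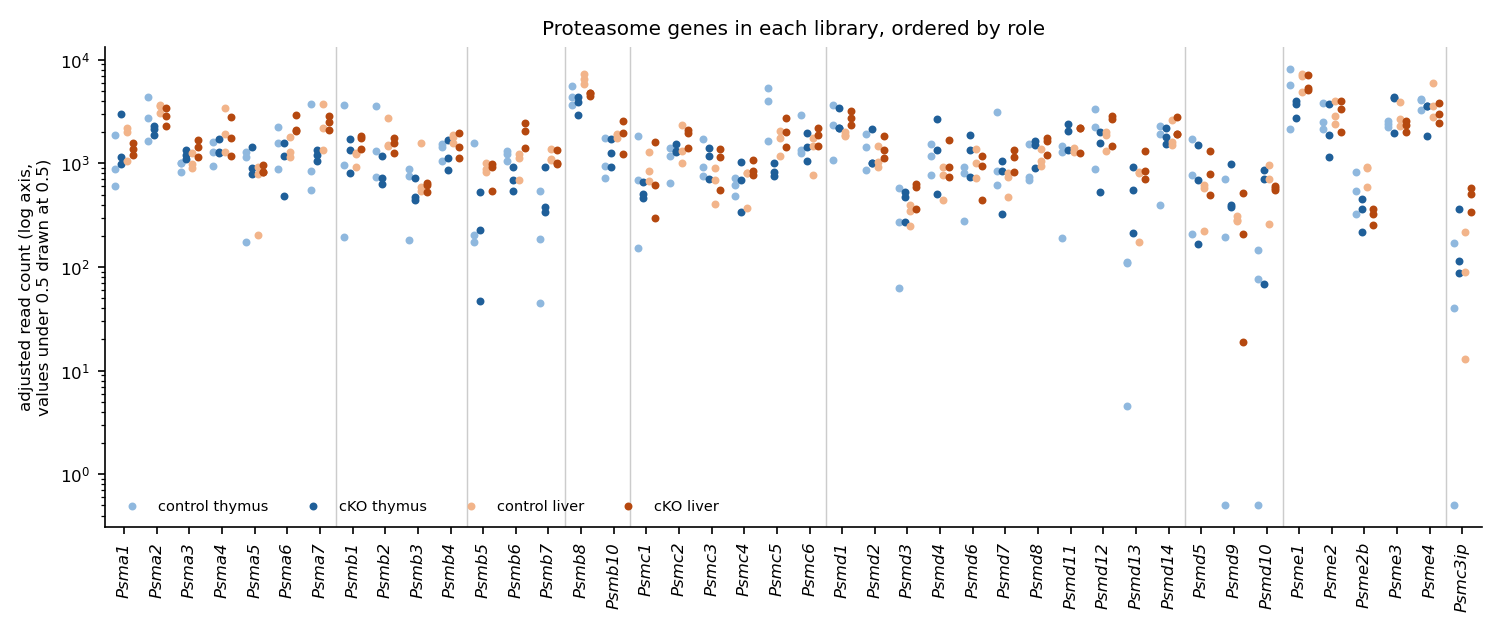
Deposited adjusted read count (log axis) of each of the 42 genes in each of the 12 libraries, ordered by role with lines between roles; values under 0.5 are drawn at 0.5. Psme1, Psmb8, Psme4, Psma2, Psme2 and Psme3 have the highest means over the 12 libraries, while Psmd13, Psmd9, Psmd10 and Psmc3ip scatter down to under 5 in control thymus.

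The immune β5 subunit Psmb8 (ENSMUSG00000024338, GRCm38 chromosome 17, 34197721 to 34201454, plus strand) varied least between libraries, with a coefficient of variation that averaged 14% over the groups. It stood at 4371, 3645 and 5562 (control) and 2905, 3910 and 4369 (cKO) in thymus, and at 6562, 5843 and 7285 (control) and 4795, 4491 and 4742 (cKO) in liver. In liver every cKO library lay below every control library, while in thymus the genotypes overlapped; every liver library lay above every thymus library of the same genotype. Between cKO and control cells the log2 fold change was -0.48 ± 0.29 in liver (limma adjusted p = 0.88) and -0.28 ± 0.29 in thymus (limma adjusted p = 0.71). Over both tissues it was -0.38 ± 0.20 (limma adjusted p = 0.43), with a 95% interval from -0.81 to 0.05. Between liver and thymus it was 0.55 ± 0.29 in control cells (limma adjusted p = 0.44) and 0.35 ± 0.29 in cKO cells (0.88). The gene shares 498 of its 3381 exon bases with Gm20496 on the opposite strand, and the sources used here do not state whether counting used strand.

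The immune β2 subunit Psmb10 (ENSMUSG00000031897, chromosome 8, 105935735 to 105938444, minus strand) stood at 1768, 725 and 939 (control) and 1713, 924 and 1261 (cKO) in thymus, and at 1930, 1759 and 1884 (control) and 1964, 2571 and 1223 (cKO) in liver. The genotypes overlapped in both tissues, with group means of 1144 ± 551 and 1300 ± 396 (SD, n = 3) in thymus and of 1858 ± 88.1 and 1919 ± 675 in liver. The 95% interval of the log2 fold change of cKO against control ran from -0.76 to 1.24 in thymus and from -1.02 to 0.98 in liver (limma adjusted p = 0.87 and 1).

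Of the constitutive catalytic subunits, Psmb6 (β1; ENSMUSG00000018286, chromosome 11, 70525367 to 70527858, plus strand) had cKO differences of opposite sign in the tissues, without passing the test. In thymus it stood at 1244, 1325 and 1047 (control) and 698, 921 and 535 (cKO), every cKO library below the controls. In liver it stood at 1114, 1241 and 685 (control) and 2448, 2031 and 1413 (cKO), every cKO library above the controls. On the log2 scale cKO against control gave -0.77 ± 0.49 in thymus (limma adjusted p = 0.52) and 0.96 ± 0.49 in liver (0.78). The difference between these effects was 1.74 ± 0.69 (limma adjusted p = 0.91, and 0.19 to 1 over the alternatives). Between liver and thymus the value in cKO cells was 1.45 ± 0.49 (limma adjusted p = 0.35), and Psmb6 was the member that DESeq2 called there (1.48, DESeq2 adjusted p = 0.029).

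Psmb7 (β2; ENSMUSG00000026750, chromosome 2, 38588036 to 38644087, minus strand) stood at 44.9, 541 and 187 (control) and 382, 342 and 920 (cKO) in thymus, and at 1098, 1070 and 1361 (control) and 1010, 992 and 1346 (cKO) in liver. Every liver library lay above every thymus library of the same genotype, and the genotypes overlapped in both tissues. Liver against thymus gave 2.81 ± 0.79 in control cells (limma adjusted p = 0.14) and 1.16 ± 0.79 in cKO cells (0.84). Without control thymus library 2 the former was called (3.66, limma adjusted p = 0.029). Psmb7 shares 405 of its 3421 exon bases with Nek6 on the opposite strand.

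Psmb5 (β5; ENSMUSG00000022193, chromosome 14, 54614119 to 54618022, minus strand) stood at 204, 175 and 1588 (control) and 47.2, 528 and 225 (cKO) in thymus, and at 816, 873 and 999 (control) and 540, 912 and 975 (cKO) in liver. Control thymus library 3 exceeded every liver library, so the tissues overlapped in control cells; in cKO cells all liver libraries were above all thymus libraries. In thymus cKO against control gave -1.10 ± 0.94 on the log2 scale (limma adjusted p = 0.65), and -3.15 to -0.08 over the alternatives. Liver against thymus gave 2.13 ± 0.94 in cKO cells (limma adjusted p = 0.60). Of its 899 exon bases 109 are shared with Mir686.

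**Figure D2:**
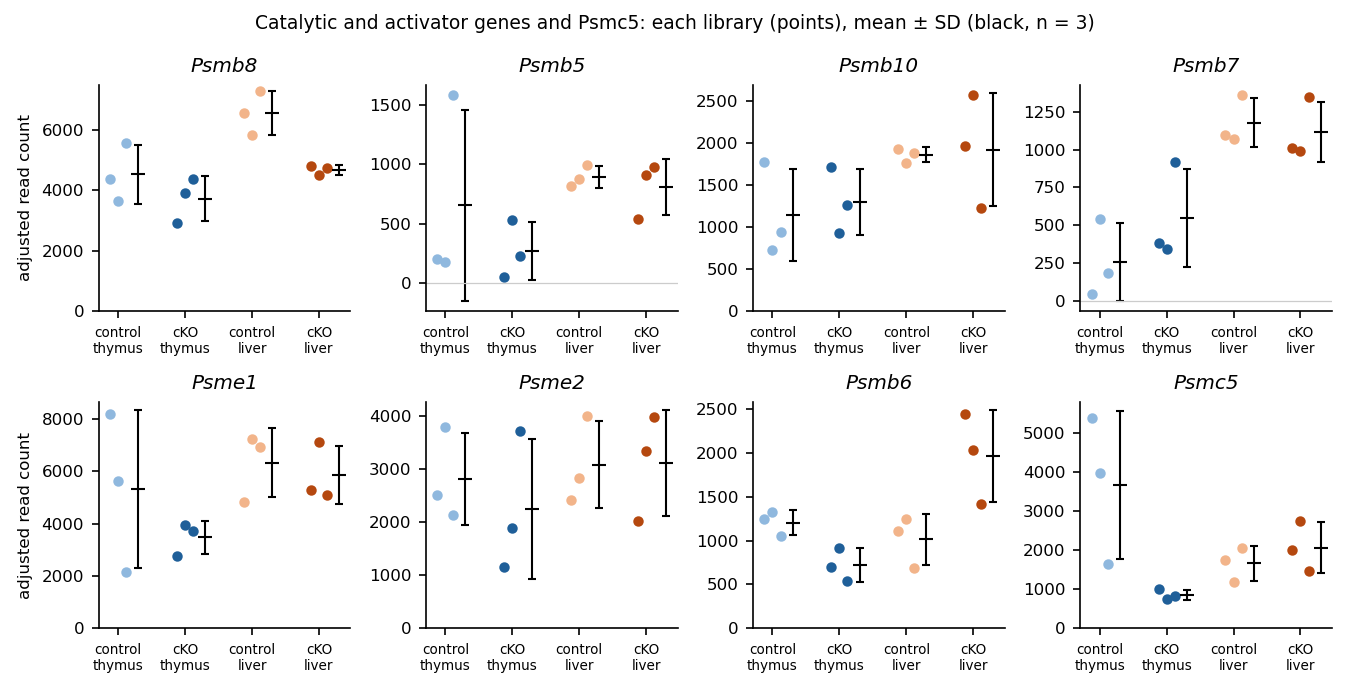
Deposited adjusted read count of 8 genes in each library (points), with group mean and SD in black (n = 3). Psmb8 clusters within each group, Psmb6 is lower in cKO thymus and higher in cKO liver than in controls, and Psmc5 is high in control thymus libraries 1 and 2; none passed the test.

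Immune subunits were compared with the constitutive ones they replace as a log2 ratio within each library, per kilobase of exon. For Psmb8 to Psmb5 the ratio in thymus was 2.51, 2.47 and -0.10 (control) and 4.03, 0.98 and 2.37 (cKO). In liver it was 1.10, 0.83 and 0.96 (control) and 1.24, 0.39 and 0.37 (cKO). Psmb8 was thus the higher in 11 of 12 libraries. Group means (SD, n = 3) were 1.63 ± 1.50 and 2.46 ± 1.53 for control and cKO thymus, and 0.96 ± 0.13 and 0.67 ± 0.50 for control and cKO liver. Psmb10 exceeded Psmb7 in 12 of 12 libraries, with means of 3.69 ± 2.46 and 2.36 ± 0.86 for control and cKO thymus and of 1.67 ± 0.18 and 1.74 ± 0.78 for control and cKO liver. The genotypes overlapped in each tissue for both ratios. With the length of the principal transcript in place of all exon bases the Psmb8 ratio was higher by 1.05, and the Psmb10 ratio shifted by -1.18; the sign then held in 12 and 11 of 12 libraries. The size of these ratios therefore depends on which transcripts are made, which counts per gene do not show.

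**Figure D3:**
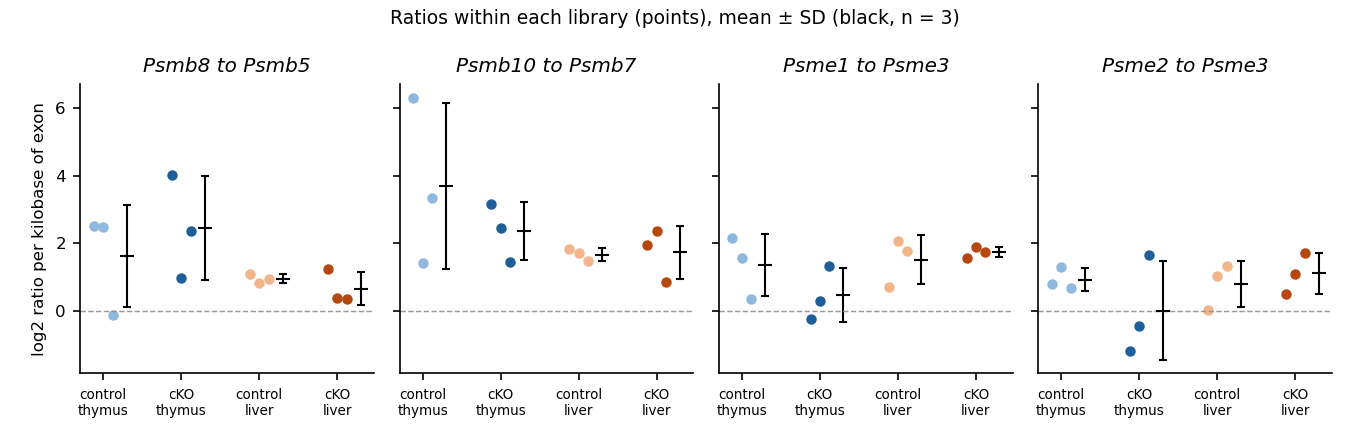
Log2 ratio per kilobase of exon within each library (points), with group mean and SD in black (n = 3); the dashed line marks equal levels. Psmb8 lies above Psmb5 in 11 of 12 libraries and Psmb10 above Psmb7 in 12 of 12, with a wider spread in thymus than in liver.

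Of the activators, Psme1 (PA28α, chromosome 14, 55578123 to 55581529, plus strand) had the highest mean level per kilobase of exon of all members, 2372 over the 12 libraries, ahead of its partner Psme2 (PA28β) at 1595. Psme1 stood at 8162, 5640 and 2141 (control) and 2762, 3956 and 3724 (cKO) in thymus, and at 4825, 7237 and 6923 (control) and 5291, 7109 and 5103 (cKO) in liver. Psme2 stood at 2507, 3795 and 2131 (control) and 1152, 1886 and 3711 (cKO) in thymus, and at 2410, 2832 and 3997 (control) and 2023, 3332 and 3979 (cKO) in liver. Genotypes overlapped in both tissues for both genes. In cKO cells every liver library exceeded every thymus library for Psme1 (0.75 ± 0.39, limma adjusted p = 0.72).

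Psme3, the nuclear activator PA28γ that interferon gamma does not induce, stood at 2419, 2552 and 2227 (control) and 4333, 4249 and 1970 (cKO) in thymus, and at 3946, 2297 and 2678 (control) and 2368, 2586 and 2021 (cKO) in liver. The genotypes overlapped in both tissues. Psme4 (PA200), known from sperm and from DNA repair, ranged from 1848 to 5896. The log2 ratio of Psme1 to Psme3 per kilobase averaged 1.36 ± 0.92 for control and 0.47 ± 0.80 for cKO thymus, and 1.52 ± 0.72 for control and 1.74 ± 0.15 for cKO liver. Psme2b, a close copy of Psme2 on chromosome 11, stood in liver at 920, 894 and 588 (control) and 253, 361 and 324 (cKO). These groups did not overlap, but the log2 fold change of -1.34 ± 0.71 did not pass the test (limma adjusted p = 0.80), nor did that over both tissues (-1.01 ± 0.50, limma adjusted p = 0.39). How counting split reads between the copies was not stated.

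Psmc5 (Rpt6; ENSMUSG00000020708, chromosome 11, 106256154 to 106263120, plus strand), 1 of the 6 ATPases that thread substrates into the core, came nearest to a call. It stood at 5381, 3960 and 1651 (control) and 1005, 760 and 822 (cKO) in thymus, and at 1744, 1183 and 2059 (control) and 1988, 2751 and 1453 (cKO) in liver. In thymus every cKO library lay below the controls, and control libraries 1 and 2 were the highest of all 12; in liver the genotypes overlapped. The log2 fold change in thymus was -1.93 ± 0.48 (95% interval -2.93 to -0.94, limma adjusted p = 0.069). It passed with TMM rescaling (-2.23, limma adjusted p = 0.044), with DESeq2 (-2.14, DESeq2 adjusted p = 0.00049) and without control thymus library 3 (-2.43, limma adjusted p = 0.0077). Over 24 alternatives it ran from -2.43 to -0.95, with an adjusted p of up to 0.69. The cKO effect was higher in liver than in thymus by 2.24 ± 0.67 (limma adjusted p = 0.81), which DESeq2 called (2.45, DESeq2 adjusted p = 0.031). Liver against thymus gave -1.02 ± 0.48 in control cells, lower in liver (limma adjusted p = 0.39), and 1.22 ± 0.48 in cKO cells (0.48). Over both tissues cKO against control gave -0.82 ± 0.34 (limma adjusted p = 0.28).

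Some genes listed as markers of other cells differed between the same groups. The 4 NK and ILC1 markers summed to 3930 to 8990 for control and to 1460 to 3060 for cKO thymus libraries, mostly from Klra9, a Ly49 receptor. Ncr1 was at or near 0 in every thymus library, and Eomes reached at most 86 there. Of 8 immature thymocyte markers 6 had a row, and these summed to 144 to 1400 for control and to 2360 to 3620 for cKO thymus libraries. Themis made up most of each sum except in control library 3, where Rag1 reached 486; Cd8a was near 0 in control libraries 1 and 2. The liver libraries had higher sums, 3850 to 6950, with Rag1 at no more than 0.905. Pecam1, the 1 endothelial marker of 4 with a row, differed by genotype in both tissues without overlap: it ran from 71.7 to 302 for control and from 0.923 to 68.5 for cKO thymus, and from 458 to 671 for control and from 1.16 to 88 for cKO liver. Whether these transcripts came from other cells, and the part of such cells in the Psmc5 values and the other genotype differences, was not tested.

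The 95% intervals of the other ATPases (Psmc1, Psmc2, Psmc3, Psmc4 and Psmc6) included 0 in both tissues for cKO against control. Summed over all 6, the ATPases reached 11095, 10539 and 5989 (control) and 5963, 6286 and 5962 (cKO) in thymus, and 6310, 6318 and 7820 (control) and 6992, 9880 and 8626 (cKO) in liver. The genotypes overlapped in both tissues, and control thymus libraries 1 and 2 were the highest.

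Of the 11 structural 19S genes, Psmd13 (Rpn9; ENSMUSG00000025487, chromosome 7, 140881968 to 140898643, plus strand) had the largest cKO difference in thymus. It stood at 4.51, 112 and 109 (control) and 916, 211 and 549 (cKO) in thymus, and at 174, 808 and 817 (control) and 1328, 700 and 840 (cKO) in liver. The genotypes did not overlap in thymus and did in liver. The control thymus values rested on 4, 97 and 87 reads, those of cKO thymus on 892, 226 and 745. On the log2 scale cKO cells exceeded controls by 3.54 ± 1.13 in thymus (limma adjusted p = 0.17; DESeq2 2.87, adjusted p = 0.04) and 2.23 ± 0.80 over both tissues (limma adjusted p = 0.19). Liver against thymus gave 3.57 ± 1.13 in control cells (limma adjusted p = 0.18; DESeq2 2.99, adjusted p = 0.036). The gene shares 342 of its 3377 exon bases with Sirt3 on the opposite strand.

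Psmd11 (Rpn6), another lid subunit, stood at 192, 1477 and 1299 (control) and 2400, 2055 and 1338 (cKO) in thymus, and at 1394, 1301 and 1285 (control) and 2180, 1267 and 2183 (cKO) in liver. Control thymus library 1 was the lowest of all 12, and the genotypes overlapped in both tissues. Its 95% interval in thymus excluded 0 before adjustment, and it was not called (limma adjusted p = 0.35).

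Besides Psmc5 and Psmd9, which is described below, the members among the lowest between tissues were lid subunits too. Psmd7 (Rpn8) stood at 3102, 624 and 847 (control) and 323, 1059 and 840 (cKO) in thymus, and at 806, 477 and 740 (control) and 831, 1153 and 1355 (cKO) in liver. Liver against thymus gave -0.84 ± 0.66 in control cells (limma adjusted p = 0.62), where thymus library 1 was the highest of all 12 and the tissues overlapped. Psmd6 (Rpn7) stood at 798, 278 and 913 (control) and 1341, 1883 and 740 (cKO) in thymus, and at 721, 1388 and 1000 (control) and 446, 1166 and 939 (cKO) in liver. In cKO cells liver against thymus gave -0.64 ± 0.63 (limma adjusted p = 0.91), with overlap.

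Psmd10 (gankyrin), Psmd9 and Psmd5 encode chaperones that help build the 19S base and leave it afterwards. Psmd10 (chromosome X, 140948429 to 140956728, minus strand) stood at 77.4, 0.0275 and 145 (control) and 68.8, 704 and 869 (cKO) in thymus, and at 955, 258 and 708 (control) and 555, 600 and 579 (cKO) in liver. The control thymus values rested on 69, 0 and 116 reads. The thymus genotypes overlapped, whereas all 3 control liver libraries exceeded all control thymus libraries. For cKO against control in thymus the log2 fold change was 3.94 ± 1.50 (limma adjusted p = 0.26), and 1.26 to 5.28 over the alternatives; where a library has no read it depends on the pseudocount. Liver against thymus in control cells gave 4.62 ± 1.50 (limma adjusted p = 0.20), called without control thymus library 3 (5.96, limma adjusted p = 0.047).

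Psmd9 stood at 0.0212, 195 and 711 (control) and 399, 376 and 980 (cKO) in thymus, and at 285, 278 and 309 (control) and 19, 208 and 515 (cKO) in liver. The cKO log2 fold change in liver was -1.18, with a 95% interval reaching 3.75 to either side, and it rested on cKO liver library 1; without it the value was 0.17. Liver against thymus in cKO cells gave -2.03 ± 1.79, the lowest of the members there (limma adjusted p = 0.89). The liver minus thymus difference of the cKO effect was -4.52 ± 2.53 for Psmd9 and -3.89 ± 2.11 for Psmd10, the 2 lowest (limma adjusted p = 0.93 for both). Psmc3ip, the gene that is no subunit, stood at 0.0212, 40.5 and 169 (control) and 365, 113 and 86.9 (cKO) in thymus, and at 13, 90.1 and 218 (control) and 572, 339 and 508 (cKO) in liver. The liver genotypes did not overlap, but the log2 fold change of 2.82 ± 1.70 did not pass (limma adjusted p = 0.88). Over both tissues it was 2.91 ± 1.20 (limma adjusted p = 0.28), and liver against thymus in cKO cells gave 1.59 ± 1.70 (0.93). Psmd9 shares 1849 of its 7248 exon bases with Gm26745 on the opposite strand, and Psmc3ip shares 385 of 1818 with Mlx, also on the opposite strand.

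**Figure D4:**
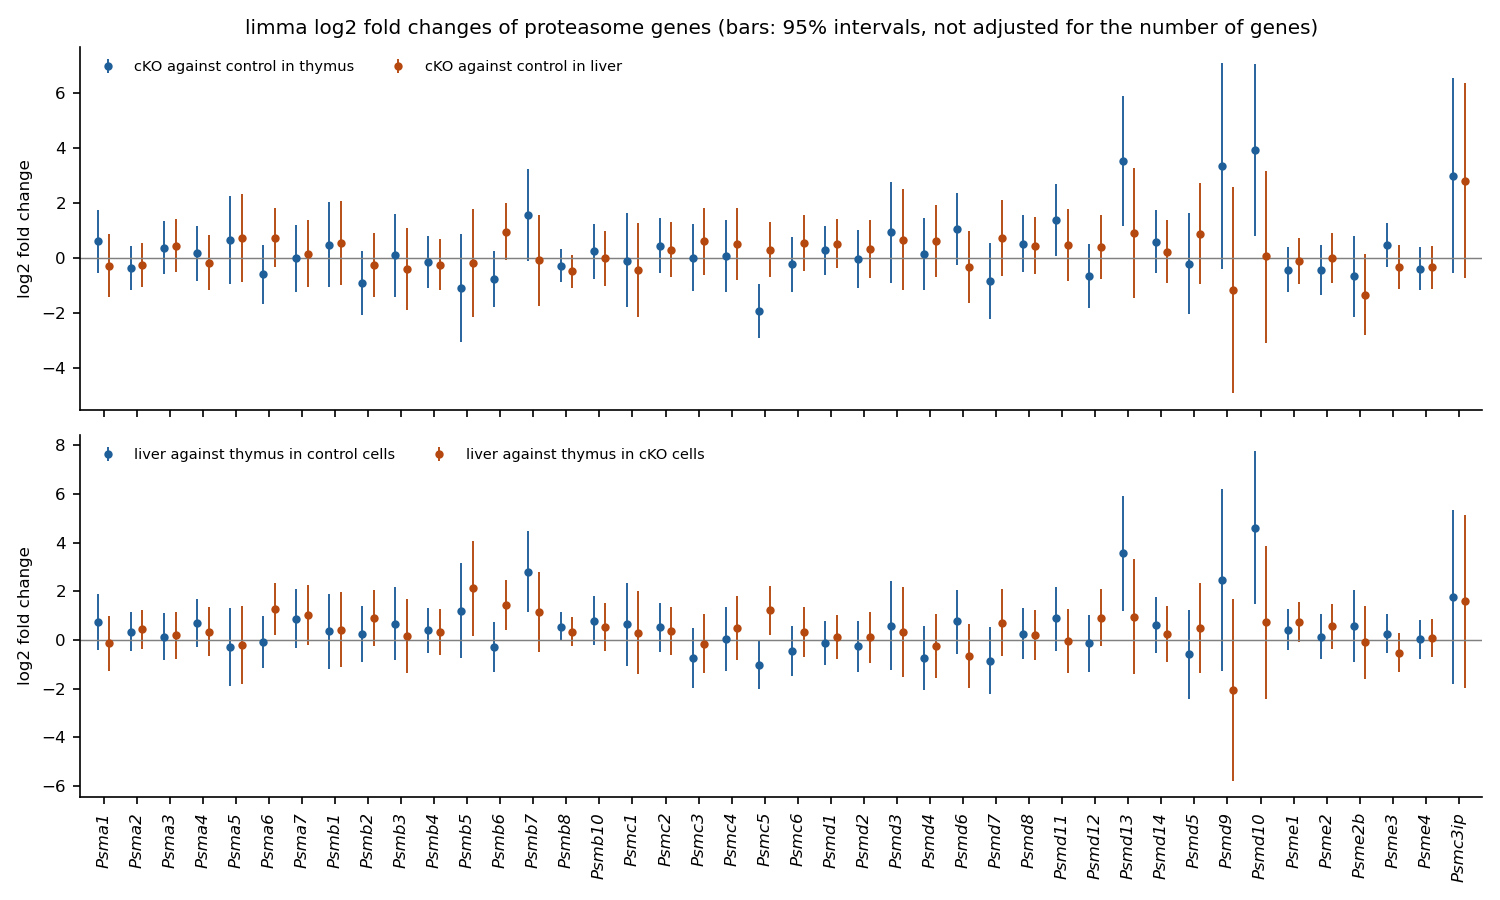
Log2 fold change (limma, points) and 95% interval (bars, not adjusted for the number of genes) of each member, for cKO against control in each tissue (top) and liver against thymus in each genotype (bottom). Most intervals cross 0, and they are widest for Psmd9, Psmd10, Psmd13 and Psmc3ip.

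Counted over all members, cKO and control libraries did not overlap for 4 of 42 in thymus (9.52%, against 14.5% of all genes): Psma3 and Psmd13 were higher in cKO cells, Psmb6 and Psmc5 lower. Psma3, an α ring subunit, was 820, 1003 and 1018 (control) and 1358, 1108 and 1208 (cKO) there. In liver 8 of 42 did not overlap (18.6% of all genes did not). Psma6, Psmb1, Psmb6, Psmc3ip, Psmd1 and Psmd7 were higher in cKO cells, Psmb8 and Psme2b lower. Between tissues 5 did not overlap in control cells (11.9%, against 15.4%), namely Psmb4, Psmb7, Psmb8, Psmd10 and Psmd13. In cKO cells 10 did not (23.8%, against 16.1%), namely Psma2, Psma6, Psma7, Psmb2, Psmb5, Psmb6, Psmb7, Psmb8, Psmc5 and Psme1. All of these were higher in liver. None of these shares was tested against the background.

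The median log2 fold change of the 42 genes was 0.08 in thymus and 0.26 in liver, against 0.24 and 0.02 for all genes tested. TMM rescaling moved the median of all genes in thymus to -0.03 and that of the members to -0.22, so the direction of the members' median there depends on the scaling. Relative to all genes it lay lower in thymus under both scalings, and higher in liver (0.25 against 0.01 with TMM). Log2 fold changes were above 0 for 23 of 42 members in thymus (57.7% of all genes), 24 in liver (51.5%) and 27 over both tissues (56.9%).

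Between liver and thymus the members' median was 0.38 in control cells (all genes 0.28; 0.07 and 0 with TMM) and 0.34 in cKO cells (all genes 0.09; 0.32 and 0.06 with TMM). Log2 fold changes were above 0 for 30 of 42 members in control cells (71.4%, against 59.5% of all genes) and for 33 in cKO cells (78.6%, against 53.7%). Hepatocyte markers also moved with tissue. Of 8, 6 had a row, and they summed to 8.24 to 868 in the thymus groups and to 719 to 1720 in the liver groups, mostly Alb in liver, with Ttr at or near 0 in every thymus library. Trf went the other way in control cells, at 110, 598 and 205 in thymus and 43.5, 7.69 and 19.3 in liver. It made up most of each control thymus sum. In control cells every list for other cells except red cells was without overlap between the tissues. The NK and ILC1 sums were lower in liver, 43.7 to 1510 against 3930 to 8990 in thymus. Higher in liver were immature thymocyte markers (144 to 1400 in thymus, 3850 to 6910 in liver), Pecam1 (71.7 to 302 and 458 to 671) and thymic epithelial markers (0.053 to 1.16 and 3.45 to 134). The dendritic cell markers (5 of 7 with a row) summed to 157 to 458 in thymus and 895 to 2170 in liver. Those of macrophages (5 of 8) summed to 0.103 to 16.5 and 19.1 to 550, and those of B cells (4 of 5) to 0.0843 to 0.176 and 1.69 to 747. In cKO cells the tissues overlapped for all lists but those of hepatocytes and immature thymocytes. Dendritic sums were 123 to 1470 and 677 to 1910, macrophage sums 0 to 114 and 106 to 356, and B cell sums 0 to 163 and 3.80 to 98.9. The part of other cells in the tissue differences was not tested.

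By role, the 11 structural 19S genes had log2 fold changes above 0 for 10 genes in liver (median 0.46) and for 8 in thymus (median 0.51). The 7 α ring genes had medians of 0.18 in thymus and 0.15 in liver, and the 4 β ring genes that do not cut had -0.03 and -0.25. Of the 5 activator genes 1 was above 0 in thymus (median -0.43) and 0 in liver (median -0.32). Of the 13 genes with an ETS core 9 were above 0 in liver (median 0.40). Of the 23 with a window but no core 11 were (median -0.01), against 51.5% of all genes tested. In thymus the medians were 0.13 and 0.06. The genes with a core include Psmc3ip, which is no subunit, and several structural 19S genes. Core and role are therefore mixed, and the split by core was not tested. Thymus medians of this size lie within the shift between scalings given above.

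Summed by library, the 14 Psmd genes reached 13629, 13901 and 14155 (control) and 17386, 17919 and 19927 (cKO) in liver. These did not overlap, and the group means were 13895 ± 263 and 18411 ± 1340. The sums of each role were not tested, and no single member had an unadjusted limma p under 0.05 for cKO against control in liver. In thymus the sums were 12506, 13631 and 17106 (control) and 16303, 18019 and 16546 (cKO), with overlap. The 14 constitutive core genes averaged 21691 ± 2225 for control and 22491 ± 1255 for cKO liver, and 17932 ± 7401 and 15215 ± 1937 for control and cKO thymus. The 4 interferon-inducible genes (Psmb8, Psmb10, Psme1 and Psme2) averaged 17829 ± 2186 for control and 15541 ± 1768 for cKO liver, and 13795 ± 3018 and 10758 ± 2268 for control and cKO thymus. The genotypes overlapped in both tissues for these last sums.

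**Figure D5:**
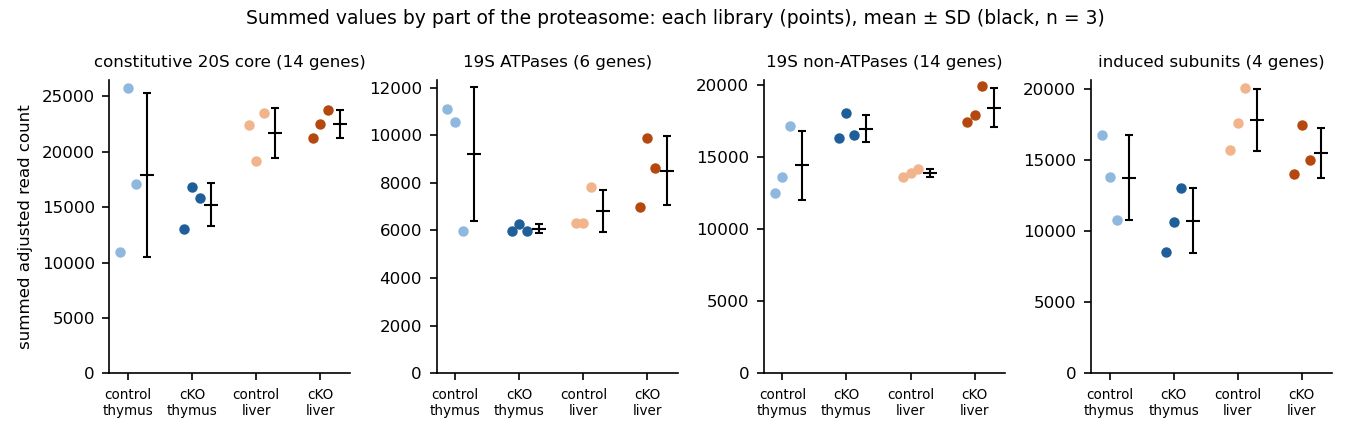
Adjusted read counts summed over the genes of each role, in each library (points), with group mean and SD in black (n = 3). The sum of the 14 Psmd genes lies at 13629 to 14155 in control liver and 17386 to 19927 in cKO liver. The other sums overlap between genotypes in each tissue, and no sum was tested.

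Among genes that act with the proteasome, few were called. Of 6 assembly factors, 17 ubiquitin receptors, deubiquitinases and regulators, and 8 transcription factors of proteasome genes, 0 were called in any comparison with limma. The chaperone Pomp, needed to close the core, averaged 1322 ± 481 for control and 1616 ± 605 for cKO thymus, and 2608 ± 340 for control and 2917 ± 868 for cKO liver. Of the 8 transcription factor genes, 3 had an unadjusted p under 0.05 in thymus (13.2% of all genes did), with differing signs. This count was not tested against the background. On the log2 scale cKO against control gave -1.31 ± 0.45 there for Nfya (limma adjusted p = 0.21), a subunit of the CCAAT-binding factor NF-Y. It gave -1.48 ± 0.69 for Ngly1 (limma adjusted p = 0.36), which encodes the enzyme that deglycosylates Nrf1, and 1.90 ± 0.86 for Nfe2l1 (0.35). In thymus Ngly1 stood at 4114, 725 and 891 (control) and 903, 174 and 768 (cKO). Nfe2l1 stood at 85.2, 1854 and 2136 (control) and 4442, 3453 and 1168 (cKO) there. Genotypes overlapped for both, with control library 1 the highest of all libraries for Ngly1 and the lowest for Nfe2l1. For Nfe2l2, the gene of Nrf2, it was -1.08 ± 0.52 (limma adjusted p = 0.38).

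Of 15 genes of MHC class I peptide loading, 1 was called, in 1 of the 6 comparisons. The class I heavy chain H2-K1 rose from 27211 ± 4180 in control thymus to 51387 ± 5150 in control liver (log2 fold change 0.92 ± 0.18, limma adjusted p = 0.019), a call that held in 14 of 24 alternatives. Among those that ended it were TMM rescaling (0.61, limma adjusted p = 0.13) and leaving out control thymus library 2 (0.80, limma adjusted p = 0.064) or control liver library 1, 2 or 3 (limma adjusted p = 0.06, 0.16 and 0.087). The peptide transporter gene Tap1 averaged 4973 ± 964 for control and 3230 ± 21.2 for cKO liver (limma adjusted p = 0.85).

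In the interferon gamma signal, 1 of 11 genes was called. The receptor chain Ifngr1 rose in cKO cells over both tissues (1.25 ± 0.22, limma adjusted p = 0.0034, called in 23 of 23 alternatives), from 7485 ± 2910 to 16359 ± 2710 in thymus and from 9882 ± 3630 to 23671 ± 4700 in liver. Of 19 interferon response genes 1 was called: the GTPase Gbp4 fell over both tissues (-1.19 ± 0.29, limma adjusted p = 0.032). That call was lost in 9 of 23 alternatives. In 7 of these 1 library was left out: control thymus 1 (-0.96, limma adjusted p = 0.06), cKO thymus 1 (0.078), control liver 1, 2 or 3 (0.1, 0.07 and 0.065) or cKO liver 1 or 2 (0.081 and 0.094). Log2 fold changes of that list were above 0 for 4 of 19 genes over both tissues (median -0.41, against 0.14 for all genes and for the proteasome genes).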

How the data were processed

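RNA-seq was made from total RNA of 12 libraries with an ultralow-input kit, per the labels' protocols. Per the submitters' processing notes, HTSeq 0.6.1, STAR, TopHat2 2.1.0, Trimmomatic 0.33 and DESeq2 were used on the build mm10, without roles; which aligner made the values was not stated, nor whether counting used strand. The authors deposited 1 table of 14004 genes, a non-negative signal: read counts adjusted for library size and not whole. Inverting a negative binomial quantile adjustment (dispersion 1.4) placed 96.9% of values within 0.1 of a whole read, and these recovered reads gave depth and the edgeR 4.0.16 and DESeq2 1.42.0 alternatives. Symbols (95.4% of identifiers) and positions came from GENCODE on GRCm38, promoters from RefSeq (GRCm38.p6).

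Genes valued at 10 or more in 3 or more libraries (13058, with 946 left out) were fitted on log2(value + 1) with limma 3.58.1 (R 4.3.3), with 1 mean per group, a variance trend and no covariate. P-values are two-sided and Benjamini-Hochberg adjusted over all genes tested. The added 1 shrinks log2 fold changes of low values. A library near 0 can still make them larger than with DESeq2, as for Psmd13 in thymus (3.54 against 2.87). The plan named edgeR for whole counts; the values are an adjusted signal, so limma was used. The steps were tested on simulated data for the liver comparison, where most of the changed genes were not called at any of the fold sizes drawn. Members and gene lists were chosen with earlier results of these data known. The rule named the catalytic and activator subunits, called members, the 2 highest and 2 lowest log2 fold changes per comparison and, per list, called genes and up to 3 others of high level; Psma3, Psmd11, Tap1, Ngly1 and Nfe2l1 were chosen after their values were seen. Alternatives changed the pseudocount, filter, scaling, samples, tool and replicate block.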

Additional observations from a re-analysis of the deposited data

Results flagged for a closer look

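The cKO effect on Psmb6 had opposite signs in the tissues: every cKO library lay below the controls in thymus and above them in liver. The effect in liver exceeded that in thymus by 1.74 on the log2 scale. The test of this difference did not pass (limma adjusted p = 0.91, with a 95% interval before adjustment from 0.29 to 3.18).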

How the results depend on the processing

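Over 24 alternatives, 34 of 35 log2 fold changes named for members kept their sign and 9 of 831 values were called. Psmd9 in liver ran from -2.18 to 0.17 when 1 library was left out, the sign turning without cKO liver library 1. The count of members called in thymus was 1 with TMM rescaling and 2 with DESeq2, and between 0 and 1 when 1 library was left out. With DESeq2 it was 1 for the difference of effects, between tissues in control cells and between tissues in cKO cells. It lay between 0 and 1 for the tissues in control cells when 1 library was left out. In liver and over both tissues it was 0 under every alternative run. The cause was not tested.

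Counts over all genes depend on the tool: 619 genes were called in thymus with DESeq2 and 51 with edgeR, against 83 with limma, and in liver 272 and 39 against 66. edgeR called 49 genes between tissues in control and 18 in cKO cells. Fitting only the groups compared gave 0 in thymus, 292 in liver, 12 between tissues in control and 57 in cKO cells. With 1 library left out, the highest counts were 542 in thymus, 547 over both tissues and 395 between tissues in control cells, all without control thymus library 3; without control thymus libraries 1 and 2 thymus had 4. Over both tissues DESeq2 called 757 against 297, for the difference of effects 112 against 1, and between tissues 478 against 79 in control and 263 against 29 in cKO cells.

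Same-numbered libraries correlated between -0.096 and 0.08 in their deviations from group means, so the numbers were not used to pair. Between the liver genotypes the own number still gave the highest correlation for libraries 1, 2 and 3 (0.078, 0.08 and 0.072). Between the thymus genotypes it did so only for library 1 (0.041). With a replicate block 0 members were called in each comparison, and 81 genes in thymus and 71 in liver.

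Principal transcript length, chosen after seeing the data, moved 11 group means of ratios by over 1 SD. Psmb8 to Psmb5 became 2.02 for control and 1.72 for cKO liver, and Psmb10 to Psmb7 became 1.18 for cKO thymus and 0.49 and 0.55 for control and cKO liver. Psme1 to Psme3 became 1.32 for cKO thymus and 2.37 and 2.58 for control and cKO liver, and Psme2 to Psme3 became 1.66 for control thymus and 1.53 and 1.84 for control and cKO liver. This shift is set by the lengths. In the 2 shallow liver libraries 1 read is worth 6.06 or 6.66 deposited units, so values near 0 are coarse there.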
